A study of Mus musculus with 4 samples.

Results

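The 10 genes described here encode the PDGF receptors (Pdgfra, Pdgfrb), the PDGF ligands (Pdgfa, Pdgfb, Pdgfc, Pdgfd) and VEGF family ligands (Vegfa, Vegfb, Vegfc, Pgf). They were taken by symbol from a table of raw read counts for 24421 gene symbols, and all 10 were listed. The table covers 4 libraries of bulk RNA, made from DPPIV- and DPPIV+ FAPs that were sorted from 2 wild-type mice, called mouse 1 and mouse 2, each of which gave both cell types. FAPs, or fibro-adipogenic progenitors, belong to the stroma between muscle fibres and were sorted here as live CD31- CD45- Sca1+ cells and split by the surface protein DPPIV, which Dpp4 encodes. All 4 libraries share the same treatment, CSF1R inhibition for 3 weeks and then 3 days without the drug, and no library of untreated muscle was analysed here. The labels name the tibialis anterior as the source, whereas their protocol describes muscle of both hindlimbs, and the sex of the animals is not given.

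Platelet-derived growth factors are secreted dimers that bind the receptor tyrosine kinases PDGFRα and PDGFRβ on mesenchymal cells. PDGF-A and PDGF-B are made ready for release inside the cell, whereas PDGF-C and PDGF-D leave the cell with an extra CUB domain that extracellular proteases have to remove before the receptor can be bound. The VEGF ligands belong to the same superfamily of cystine-knot factors but act mainly on receptors of blood and lymphatic endothelium. In muscle, PDGFRα marks FAPs, PDGFRβ is found on FAPs and on the mural cells of vessels, and PDGF-B is known as a product of endothelium.

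Between 18240110 and 20879405 reads were counted on genes per library, so that 3 reads, the limit a count of 0 allows, correspond to between 0.143 and 0.166 CPM (read counts scaled to a common library size, with TMM normalization). This limit covers counting error only. Values of a pair are given for mouse 1 and then mouse 2. Dpp4 had 89.6 and 39.6 CPM in DPPIV- FAPs and 727 and 574 CPM in DPPIV+ FAPs. The sort thus separated the libraries by its own marker. FAP markers were abundant in every library, with the 7 genes Ly6a, Cd34, Dcn, Col1a1, Col3a1, Lum and Gsn summing to between 92050 and 111600 CPM.

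The largest differences were those of Pdgfc and Pdgfd, the ligands that need extracellular cleavage, which rose 6.47-fold and 4.86-fold in DPPIV+ FAPs. Vegfc, a growth factor of lymphatic vessels, fell in DPPIV+ FAPs, to 0.443 times its level in DPPIV- FAPs. Both receptor genes were lower in DPPIV+ FAPs, at 0.767 (Pdgfra) and 0.793 (Pdgfrb) times the level in DPPIV- FAPs, and Vegfa, Vegfb and Pgf were slightly higher. Pdgfa and Pdgfb, the classical ligands, were close to the detection filter and did not pass the test. All 10 genes passed the filter of 2 CPM in at least 2 libraries. The test was edgeR's quasi-likelihood test, with mouse as a term and Benjamini-Hochberg adjustment over 11588 genes, and a value after ± beside a log2 difference is its standard error. At an adjusted p under 0.05 it called 5 of the 10 higher and 3 lower in DPPIV+ FAPs. Over all genes tested, it called 33.0%, 15.9% higher and 17.2% lower. DESeq2's Wald test called 2 of the 10 higher and 3 lower, beside 7.97% and 8.59% of all genes. For 8 of the 10 genes, all but Pdgfa and Vegfa, the CPM of the cell types did not overlap, as was true of 56.3% of all genes tested. All 10 differed in the same direction in both mice, but the share of all genes that did so is not given here. In bulk libraries, fewer cells that express a gene and less RNA of it per cell cannot be told apart.

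**Figure D1:**
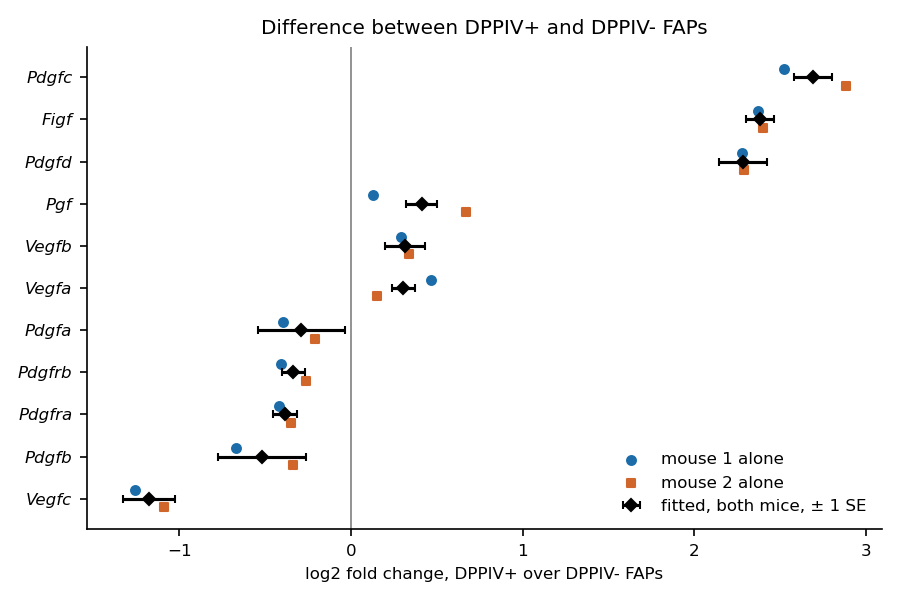
Log2 fold change (DPPIV+ over DPPIV- FAPs, horizontal axis) of the 10 genes and of Figf, with the fitted value and 1 standard error as diamonds and bars and the ratio of each mouse as a circle (mouse 1) or a square (mouse 2). Pdgfc (2.69), Figf (2.38) and Pdgfd (2.28) stand on the right, Vegfc (-1.17) on the left, and the other 7 genes between -0.52 and 0.41.

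Pdgfra, on chromosome 5 of GRCm38 from 75152292 to 75198215, had 1653 and 1473 CPM in DPPIV- FAPs and 1238 and 1157 CPM in DPPIV+ FAPs. The groups did not overlap, and DPPIV- FAPs were higher in both mice. In edgeR's fit, this came to -0.38 ± 0.07 on the log2 scale (adjusted p = 7.56e-07), and the ratios in mouse 1 and mouse 2 were -0.42 and -0.35 on the log2 scale. Over the 4 libraries, the mean CPM of Pdgfra was above that of 99.3% of the genes tested. Of the exon bases of Pdgfra, 456 are shared with Gm42802 and 166 with Gm42803 on the opposite strand, and neither is among the symbols counted. Mir7025, on the same strand and among the symbols counted, shares 30.

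Pdgfrb, on chromosome 18 from 61045150 to 61085061, had 465 and 499 CPM in DPPIV- FAPs and 351 and 416 CPM in DPPIV+ FAPs, again without overlap. Its fitted log2 difference in edgeR was -0.33 ± 0.07 (adjusted p = 6.46e-06), with -0.41 in mouse 1 and -0.26 in mouse 2. Without the mouse term in edgeR, its adjusted p was 0.0756. Mural cells also express Pdgfrb, and 6 of 7 mural cell markers were lower in DPPIV+ FAPs in edgeR's test and 4 in DESeq2. Their sum was 151 and 152 CPM in the DPPIV- libraries and 55.6 and 70.5 CPM in the DPPIV+ libraries, and no marker was at 0 in all libraries. The markers did not fall alike. Cspg4, the most abundant, had 63.3 and 75.8 CPM against 22.6 and 35.9 CPM, and Abcc9 had 29.9 and 29.0 CPM against 4.49 and 7.06 CPM. Rgs5 had 13.7 and 9.44 CPM against 9.31 and 7.89 CPM (adjusted p = 0.439 in DESeq2). Myh11 was called in neither test, with 10.9 and 7.29 CPM against 7.37 and 7.50 CPM. The part of mural cells in the difference of Pdgfrb was not tested. Pdgfrl, which encodes a soluble receptor-like protein and was chosen after its values had been seen, moved further than either receptor. It had 126 and 151 CPM in DPPIV- FAPs and 28.7 and 45.8 CPM in DPPIV+ FAPs, which edgeR fitted as -1.92 ± 0.07 log2 units.

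By the root mean square difference of mean-centred log2 CPM, the nearest to Pdgfra were Pigyl (0.012), Abca8a (0.013) and Slc2a12 (0.017), and the nearest to Pdgfrb were Prnp (0.0054), Tpm1 (0.0067) and Vgll4 (0.014). These are descriptions over 4 libraries, with 2 of each cell type.

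Pdgfc, on chromosome 3 from 81036416 to 81214040, was counted 155 and 122 times (mouse 1, mouse 2) in the DPPIV- libraries and 765 and 839 times in the DPPIV+ libraries. In CPM, these were 7.39 and 6.22 against 42.4 and 45.9, so each DPPIV+ library stood far above both DPPIV- libraries. In edgeR's fit, this came to 2.69 ± 0.11 on the log2 scale (adjusted p = 2.39e-128), with 2.52 in mouse 1 and 2.88 in mouse 2, and it was above that of 99.5% of the genes tested. With RLE normalization in edgeR, the adjusted p of Pdgfc was 6.68e-17. An antisense gene, Gm16000, shares 147 exon bases of Pdgfc and is not among the symbols counted.

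Pdgfd, on chromosome 9 from 6168584 to 6378850, had 127 and 78 reads in DPPIV- FAPs and 531 and 355 reads in DPPIV+ FAPs. In CPM, these were 6.06 and 3.98 against 29.4 and 19.4, without overlap. Its fitted log2 difference in edgeR was 2.28 ± 0.14 (adjusted p = 3.11e-57). Mouse 1 was above mouse 2 in both cell types, while the log2 ratio between the cell types was 2.28 in mouse 1 and 2.29 in mouse 2.

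Pdgfa and Pdgfb were low in every library. Pdgfa, on chromosome 5 from 138976014 to 138997370, had 2.48 and 3.93 CPM in DPPIV- FAPs and 1.88 and 3.40 CPM in DPPIV+ FAPs, and the groups overlapped. Its log2 fold change was -0.29 with an unadjusted 95% interval from -0.79 to 0.21 (adjusted p = 0.439, edgeR's quasi-likelihood test). Of its exon bases, 813 (26.1%) are shared with 6330403L08Rik on the opposite strand, and whether strand was used in counting is not given in the sources used here. Pdgfb, on chromosome 15 from 79995874 to 80014977, had 4.05 and 2.70 CPM in DPPIV- FAPs and 2.55 and 2.14 CPM in DPPIV+ FAPs, that is 85, 53, 46 and 39 reads. The log2 fold change was -0.52 with an unadjusted 95% interval from -1.02 to -0.02, and the adjusted p was 0.112 in edgeR's quasi-likelihood test and 0.720 in DESeq2. Pdgfb was highest in the DPPIV- library of mouse 1. Of the 6 blood endothelial markers, all but Tek were also highest in that library, Pecam1 with 20.4 CPM against 11.2 to 11.7 CPM in the others. Tek, the most abundant of them, went the other way, with 186 and 149 CPM in DPPIV- FAPs and 466 and 426 CPM in DPPIV+ FAPs. Endothelial markers were not alone in setting this library apart. The summed macrophage and leukocyte markers were also highest in it, with 304 CPM against 174 to 193 CPM in the others. The summed myofibre markers were lowest in it, with 39.6 CPM against 44.4 to 62.8 CPM. The part of endothelial cells in the values of Pdgfb was not tested.

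**Figure D2:**
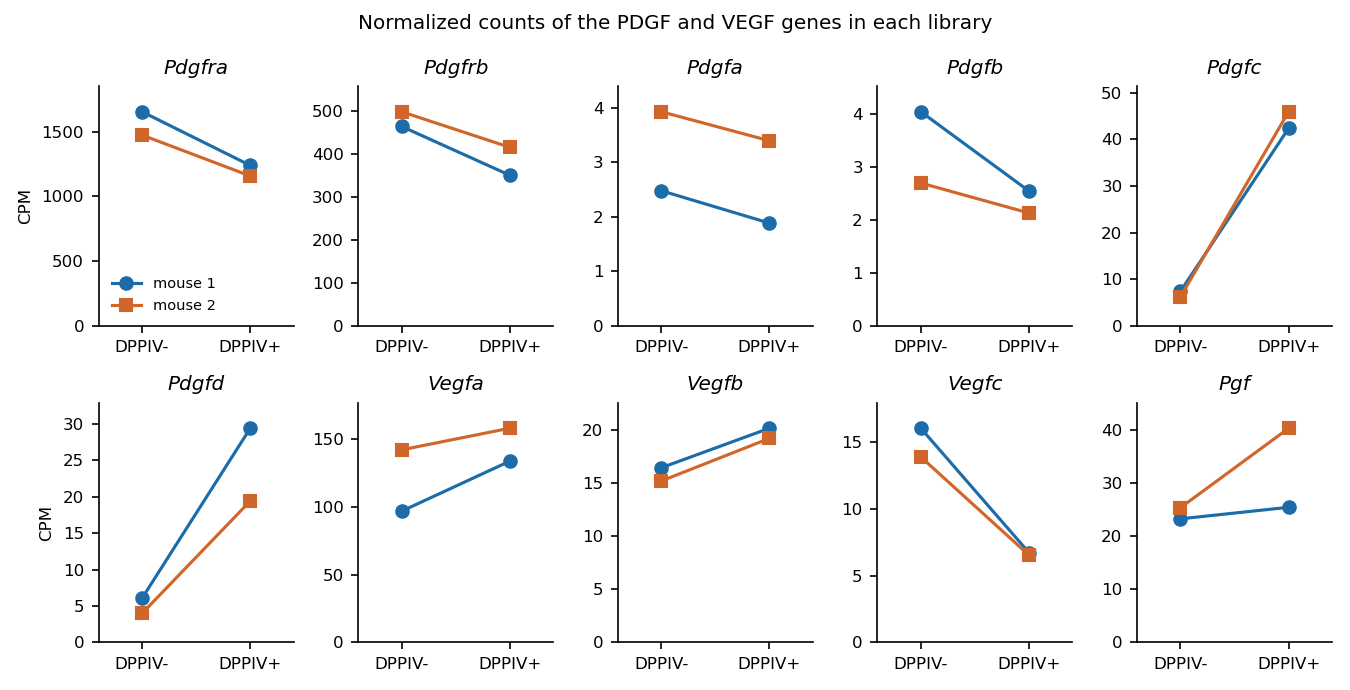
CPM (vertical axis, starting at 0 and scaled to each gene) of the 10 genes in DPPIV- and DPPIV+ FAPs, with a line for each mouse (mouse 1, circles; mouse 2, squares). Pdgfc and Pdgfd climb and Vegfc drops steeply in both mice, whereas for Vegfa and Pdgfa the mice stand further apart than the cell types.

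The stretches just upstream of the genes with the largest differences are shown to set the higher ligands Pdgfc and Pdgfd beside Vegfc, which was lower. Each covers 250 bases before the start that RefSeq gives on GRCm38.p6, all on the plus strand, at chr3:81036166-81036415 for Pdgfc, chr9:6168236-6168485 for Pdgfd and chr8:54077282-54077531 for Vegfc. Capitals mark matches, on either strand, to the box of TATA-binding protein (TATAAA), the GC box (GGGCGG), the box of NF-Y (CCAAT), the core of the hypoxia response element (ACGTG), the site of AP-1 (TGANTCA) or that of TEAD (GGAATG), and no matches overlap in these 3 windows.
Pdgfc: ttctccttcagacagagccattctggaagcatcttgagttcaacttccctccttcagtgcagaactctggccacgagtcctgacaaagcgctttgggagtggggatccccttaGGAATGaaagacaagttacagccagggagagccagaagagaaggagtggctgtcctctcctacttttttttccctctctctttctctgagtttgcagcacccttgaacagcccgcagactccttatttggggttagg
Pdgfd: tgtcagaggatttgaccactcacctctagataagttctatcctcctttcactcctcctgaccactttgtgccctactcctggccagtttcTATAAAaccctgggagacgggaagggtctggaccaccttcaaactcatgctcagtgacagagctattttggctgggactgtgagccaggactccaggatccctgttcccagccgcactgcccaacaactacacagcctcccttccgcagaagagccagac
Vegfc: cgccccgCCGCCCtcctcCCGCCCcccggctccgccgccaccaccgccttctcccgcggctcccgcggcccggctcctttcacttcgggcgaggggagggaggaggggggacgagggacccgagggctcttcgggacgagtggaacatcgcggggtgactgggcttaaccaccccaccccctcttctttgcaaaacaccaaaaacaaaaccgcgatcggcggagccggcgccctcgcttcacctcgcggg

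The upstream windows of Pdgfc and Pdgfd held 3 CpG dinucleotides each, fewer than the median of 6 over 32841 windows of the same length, whereas that of Vegfc held 30, and 94.1% of windows held fewer. The window of Figf (Vegfd), which was higher, held 2. The other genes did not divide in this way, since the window of Pdgfra, which was lower, held 4, and those of Vegfb and of the first Pgf start, which were higher, held 26 and 20 (7 at the second Pgf start). In Pdgfc the only match was GGAATG, 137 bases upstream of the start, a string found in 12.6% of all windows. Pdgfd had TATAAA at 160 bases upstream and Figf had it at 73, a string found in 12.4% of windows. Vegfc had GGGCGG, read on the opposite strand, at 243 and 232 bases upstream, and 32.7% of windows hold it. RefSeq windows were found for 8 of the 10 genes, and ACGTG (16.6% of all windows) occurred in 1 of them, a second Vegfa start, at 211 bases upstream. A match of letters is not evidence of a bound factor.

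Vegfa, the main factor of blood vessel growth, lies on chromosome 17 from 46016993 to 46032369. It had 97.0 and 142 CPM in DPPIV- FAPs and 134 and 158 CPM in DPPIV+ FAPs. It was higher in DPPIV+ FAPs within each mouse, but the DPPIV- library of mouse 2 was above the DPPIV+ library of mouse 1. In edgeR's fit, this came to 0.31 ± 0.07 on the log2 scale (adjusted p = 2.11e-05), with 0.47 in mouse 1 and 0.15 in mouse 2. In DESeq2's Wald test its adjusted p was 0.0507, and without the mouse term in edgeR it was 0.340.

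Vegfb, on chromosome 19 from 6982473 to 6987651, encodes a ligand of Flt1 known for its expression in muscle and heart. It had 16.4 and 15.2 CPM in DPPIV- FAPs and 20.2 and 19.2 CPM in DPPIV+ FAPs, without overlap, which edgeR fitted as 0.32 ± 0.11 log2 units (adjusted p = 0.0199). The ratios of the mice were close, 0.29 and 0.34 on the log2 scale. The adjusted p was 0.434 in DESeq2 and 0.0550 with upper-quartile normalization in edgeR.

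Pgf, on chromosome 12 from 85166635 to 85177790, encodes placental growth factor, another ligand of Flt1. It had 23.2 and 25.3 CPM in DPPIV- FAPs and 25.4 and 40.2 CPM in DPPIV+ FAPs. The DPPIV+ library of mouse 2 stood apart, while the others lay between 23.2 and 25.4 CPM, so that the groups only just did not overlap. In edgeR's fit, this came to 0.41 ± 0.09 on the log2 scale (adjusted p = 3.56e-05), with 0.13 in mouse 1 and 0.67 in mouse 2, and DESeq2's adjusted p was 0.153.

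Vegfc, on chromosome 8 from 54077606 to 54187096, had 16.0 and 13.9 CPM in DPPIV- FAPs and 6.71 and 6.52 CPM in DPPIV+ FAPs. The groups were well apart, and the DPPIV+ libraries nearly coincided. In edgeR's fit, this came to -1.17 ± 0.15 on the log2 scale (adjusted p = 1.17e-13), with -1.26 in mouse 1 and -1.09 in mouse 2. Figf (Vegfd) encodes the other ligand of the lymphatic receptor Flt4 and moved the opposite way. It is listed under its older symbol and lies on chromosome X from 164373378 to 164402650. It had 17.5 and 14.2 CPM in DPPIV- FAPs and 90.4 and 75.0 CPM in DPPIV+ FAPs, which edgeR fitted as 2.38 ± 0.08 log2 units (adjusted p = 3.33e-181), with 2.37 in mouse 1 and 2.40 in mouse 2. Per kilobase of exon, the ratio of Figf to Vegfc was 1.11 and 1.04 in DPPIV- FAPs and 13.7 and 11.7 in DPPIV+ FAPs.

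To compare genes with each other, CPM was divided by the length of the union of a gene's exons, which gives RPKM (CPM per kilobase). Among the PDGF receptors, Pdgfra was at 156 ± 12.7 (SD, n = 2) RPKM in DPPIV- FAPs and 119 ± 5.74 in DPPIV+ FAPs, and Pdgfrb at 88.0 ± 4.43 and 70.0 ± 8.40. The ratio of Pdgfra to Pdgfrb hardly moved between cell types, at 1.94 and 1.93 in mouse 1 and 1.61 and 1.52 in mouse 2. Both receptors were above every ligand per length in every library.

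In DPPIV- FAPs, the PDGF ligands were all low and in the order Pdgfd (1.59 ± 0.465 RPKM), Pdgfc (1.34 ± 0.162), Pdgfa (1.03 ± 0.328) and Pdgfb (0.812 ± 0.229), and each neighbour in this order overlapped the next over the mice. In DPPIV+ FAPs, Pdgfc was at 8.68 ± 0.491 and Pdgfd at 7.75 ± 2.24, overlapping each other with this length but far above Pdgfa (0.846 ± 0.342) and Pdgfb (0.563 ± 0.0704). Pdgfc and Pdgfd together with the others summed to 5.14 and 4.39 in the DPPIV- libraries and to 18.9 and 16.8 in the DPPIV+ libraries, which is 3.67 and 3.82 times as much in mouse 1 and mouse 2. The share of Pdgfa in this sum was 22.1% in DPPIV- FAPs and 4.84% in DPPIV+ FAPs.

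In the VEGF family, Vegfa was the highest per length in DPPIV- FAPs, at 27.9 ± 7.48 RPKM, followed by Vegfb (9.86 ± 0.550), Pgf (8.36 ± 0.507), Figf (6.58 ± 0.974) and Vegfc (6.10 ± 0.619), and Figf and Vegfc overlapped over the mice. In DPPIV+ FAPs, Figf (34.4 ± 4.52) and Vegfa (34.1 ± 4.01) overlapped at the top, and Vegfb (12.3 ± 0.422) and Pgf (11.3 ± 3.62) overlapped below them. Vegfc came last with 2.70 ± 0.0552. Without Figf, the sum of Vegfa, Vegfb, Vegfc and Pgf was 1.17 and 1.15 times as high in DPPIV+ as in DPPIV- FAPs, and with Figf it was 1.70 and 1.53 times as high.

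**Figure D3:**
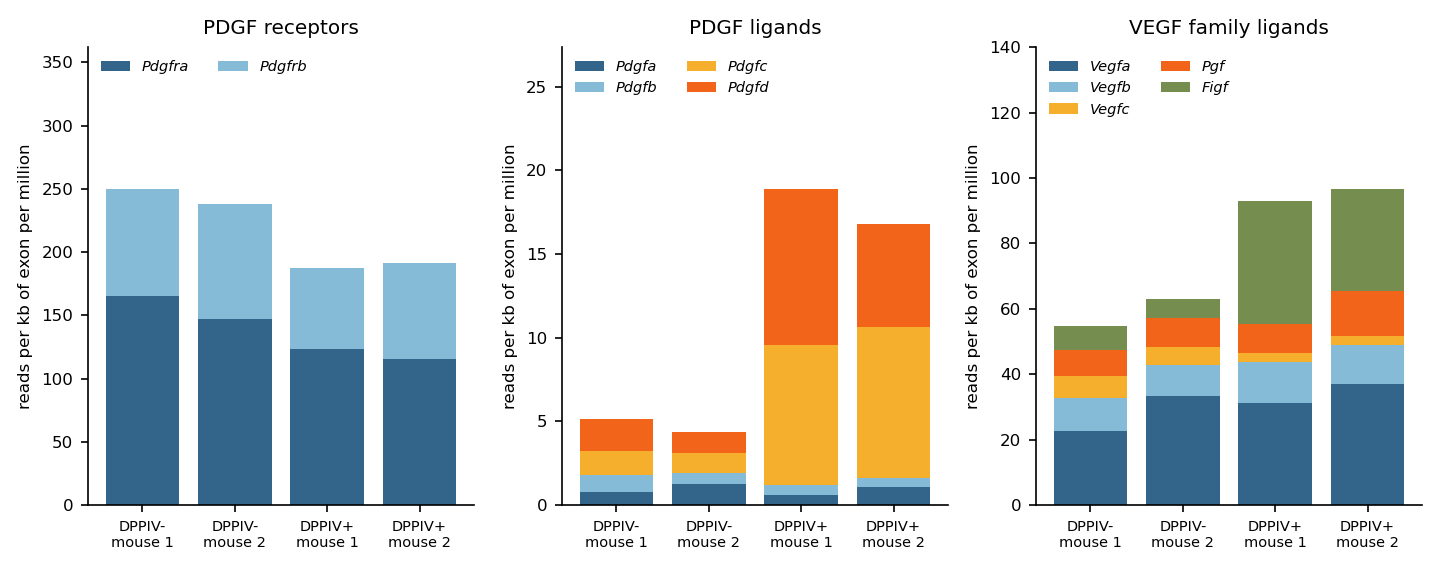
RPKM (reads per kb of exon, vertical axes, starting at 0) of the PDGF receptors, the PDGF ligands and the VEGF family ligands in each of the 4 libraries, stacked by gene. In the middle panel the DPPIV+ bars are 3.67 and 3.82 times as tall as those of the same mouse's DPPIV- FAPs, nearly all of it Pdgfc and Pdgfd, and in the right panel Figf grows while Vegfc shrinks.

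The mice differed from each other for 4 of the 10 genes, beside 8.98% of all genes tested (mouse term of the same edgeR model, adjusted p under 0.05). Vegfa and Pgf were higher in mouse 2, with log2 differences of 0.40 each, as was Pdgfa with 0.74, and Pdgfd was lower with -0.60. In RLE normalization, without the filter and with 2 CPM in at least 3 libraries, 3 of the 10 were called. For Vegfa, the difference between the mice was thus larger than that between the cell types. DESeq2's Wald test called 0 of the 10 between the mice, with 3 at an unadjusted p under 0.05 (5 in edgeR), beside 1.01% of all genes called, and gave no adjusted p for 2 of them. The mouse 1 libraries also stood apart in Xist, with 7.3 and 9.2 CPM against 0.051 and 0.16 CPM in mouse 2, while Ddx3y was at 55.9 to 62.1 CPM in all 4 libraries, and whether RNA of another animal had a part in the differences between the mice was not tested.

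The other genes of the pathway were taken from lists of receptors, ligand-processing proteins, extracellular binders, signal carriers and regulators, 53 genes in all. Of the 49 that passed the filter, edgeR's test called 8 higher and 24 lower in DPPIV+ FAPs, beside 15.9% and 17.2% of all genes tested. The median log2 fold change was -0.17, beside -0.002 over all genes tested. DESeq2 called 4 higher and 11 lower, beside 7.97% and 8.59% of all genes. The same shares stand beside the counts of each list that follow.

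Of the 5 VEGF receptors and co-receptors, 4 were lower (2 in DESeq2) and 0 higher, and 0 were higher at an unadjusted p under 0.05 in edgeR or DESeq2. Nrp1, a co-receptor of VEGF and semaphorins, had 283 and 275 CPM in DPPIV- FAPs and 157 and 152 CPM in DPPIV+ FAPs, which edgeR fitted as -0.85 ± 0.07 log2 units. Nrp2, the co-receptor for VEGF-C, had 36.6 and 40.1 CPM against 28.5 and 25.9 CPM, or -0.50 ± 0.09 log2 units. Both neuropilins were lower in both mice. Flt1 and Kdr, the receptors of blood endothelium, were called lower as well, but their differences stood mainly in mouse 1, with log2 ratios of -1.22 and -0.17 for Flt1 and -0.95 and 0.10 for Kdr in mouse 1 and mouse 2. DESeq2's adjusted p was 0.0880 for Flt1 and 0.541 for Kdr. The blood endothelial markers tested did not move alike. These ratios were -0.80 and 0.00 for Pecam1, -1.80 and -0.01 for Esam and -0.31 and 0.04 for Emcn. They were -0.33 and -0.32 for Cdh5 and 1.32 and 1.52 for Tek, which was higher in DPPIV+ FAPs. The summed macrophage and leukocyte markers were, like Flt1 and Kdr, highest in the DPPIV- library of mouse 1. The part of endothelial cells in the values of Flt1 and Kdr was not tested. Flt4 had 2.05 and 2.24 CPM in DPPIV- FAPs and 2.00 and 0.986 CPM in DPPIV+ FAPs and did not pass the test (adjusted p = 0.165, edgeR's quasi-likelihood test).

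Among proteins that process the ligands, 2 of 8 tested were higher and 5 lower in edgeR's test, and 1 was higher and 1 lower in DESeq2. Plat encodes tissue plasminogen activator, which is known to cleave PDGF-C. It had 261 and 257 CPM in DPPIV- FAPs and 507 and 411 CPM in DPPIV+ FAPs, which edgeR fitted as 0.82 ± 0.07 log2 units (adjusted p = 2.81e-31). Plau encodes urokinase, which can cleave PDGF-D, and had 1277 and 1006 CPM against 1058 and 932 CPM (-0.19 log2 units, adjusted p = 0.0234 in edgeR's test and 0.152 in DESeq2). Ccbe1, the secreted cofactor that brings the protease ADAMTS3 to VEGF-C, had 66.3 and 72.2 CPM in DPPIV- FAPs and 18.5 and 18.7 CPM in DPPIV+ FAPs, which edgeR fitted as -1.89 ± 0.08 log2 units (adjusted p = 1.05e-112). Adamts3 itself had 18.2 and 23.1 CPM against 10.7 and 17.7 CPM, which edgeR fitted as -0.56 ± 0.12 log2 units, with an adjusted p of 0.0519 in DESeq2. Vegfc, Ccbe1 and Adamts3 were thus lower in DPPIV+ FAPs in both mice.

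**Figure D4:**
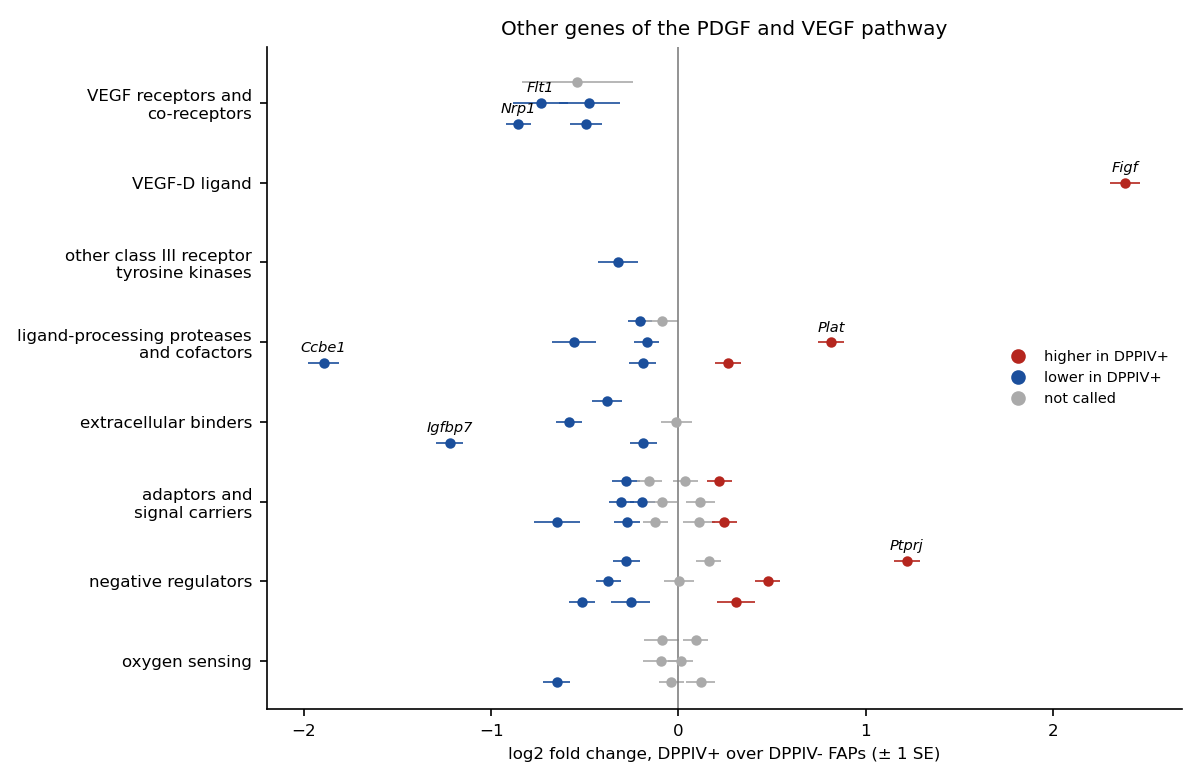
Log2 fold change (DPPIV+ over DPPIV- FAPs, horizontal axis, with 1 standard error) of the 49 other pathway genes tested, 1 point a gene, in rows by list and coloured by the call of edgeR's test. Figf (2.38), Ptprj (1.22) and Plat (0.82) stand out on the right, and Ccbe1 (-1.89), Igfbp7 (-1.22) and Nrp1 (-0.85) on the left.

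Of 5 extracellular proteins that bind these ligands or act on their signalling, 4 were lower (3 in DESeq2) and 0 higher, and 0 were higher at an unadjusted p under 0.05 in edgeR or DESeq2. The log2 fold changes were -1.22 for Igfbp7, -0.58 for Ctgf, -0.38 for Hspg2 (perlecan) and -0.19 for Thbs1 (adjusted p = 0.0272 in edgeR's test and 0.180 in DESeq2). Sparc, which can bind PDGF-B, was at -0.01 and did not pass. Among 9 negative regulators of the receptors, 3 were higher and 4 lower (2 and 2 in DESeq2). Ptprj, a receptor phosphatase that acts on PDGFRβ and on the VEGF receptor Kdr, had 38.4 and 38.6 CPM in DPPIV- FAPs and 89.4 and 89.9 CPM in DPPIV+ FAPs, which edgeR fitted as 1.22 ± 0.07 log2 units. The ubiquitin ligase gene Cblb was higher (0.48), and the adaptor Sh2b3 lower (-0.52).

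Of 13 cytoplasmic adaptors and signal carriers, 2 were higher and 5 lower in edgeR's test, and 0 higher (2 at an unadjusted p under 0.05) and 2 lower in DESeq2, with log2 fold changes from -0.65 for Nck2 to 0.24 for Crk. Pik3r1, a regulatory subunit of PI 3-kinase, was at -0.31, and Nck1 at -0.28. The adjusted p of Crk and Nck1 was 0.112 and 0.227 in DESeq2. Of 7 tested genes of oxygen sensing, which sets Vegfa transcription in hypoxia, 1 was lower in both tests and 0 higher, and 0 were higher at an unadjusted p under 0.05 in edgeR or DESeq2. That gene was Epas1, which encodes HIF-2α, at -0.65 ± 0.07 log2 units. Hif1a was at 0.09 and did not pass. Of the related receptors Kit, Flt3 and Csf1r, only Csf1r reached the filter, with 29.0 and 16.3 CPM in DPPIV- FAPs and 19.2 and 16.3 CPM in DPPIV+ FAPs (-0.32 log2 units, adjusted p = 0.0102 in edgeR's test and 0.511 in DESeq2). Kit had between 1 and 7 reads per library, and Flt3 had 2 reads in 1 library and 0 in the others.

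Of the 7 FAP markers, 2 were higher in DPPIV+ FAPs in both tests, Ly6a (0.58 log2 units) and Cd34 (0.52). Lum (-0.85), Col1a1 (-0.40), Dcn (-0.28) and Gsn (-0.25) were lower in both tests. Markers of other cells also moved with the sort in part. Of 5 tenocyte markers, Fmod, Scx, Mkx and Tnmd were higher in DPPIV+ FAPs in both tests. Fmod had 167 and 259 CPM in DPPIV- FAPs and 688 and 1442 CPM in DPPIV+ FAPs. Thbs4 was lower in edgeR's test (-0.20 log2 units, adjusted p = 0.026, and 0.851 in DESeq2), with 1598 and 2092 CPM in DPPIV- FAPs and 1151 and 2213 CPM in DPPIV+ FAPs, and made up most of the list's sum. The summed tenocyte markers were at 1794 and 2386 CPM in the DPPIV- libraries and 1899 and 3760 CPM in the DPPIV+ libraries. Of 6 blood endothelial markers 5 were tested, of which 3 were lower in edgeR's test and 0 in DESeq2 (0 at an unadjusted p under 0.05), and Tek was higher in both (log2 fold change 1.42). Of those 3, Pecam1 and Esam had log2 ratios of 0.00 and -0.01 in mouse 2. Of 6 macrophage and leukocyte markers, 4 were lower in edgeR's test and 0 in DESeq2 (1 at an unadjusted p under 0.05), with sums of 304 and 186 CPM in the DPPIV- libraries and 193 and 174 CPM in the DPPIV+ libraries. Of 3 perineurium markers 2 were tested, and Cldn1 was lower in both tests, with 3.24 and 3.32 CPM in DPPIV- FAPs and 1.11 and 0.931 CPM in DPPIV+ FAPs. Slc2a1, the more abundant of the 2, was called in neither test, with 10.4 and 12.9 CPM against 11.3 and 12.8 CPM. The 3 satellite cell markers summed to at most 1.22 CPM in a library. The part of these cells in the differences of Pdgfc, Pdgfd and Vegfc was not tested.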

How the data were processed

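Raw read counts per gene symbol, as deposited by the authors, were used for 4 libraries (paired-end, poly(A)-selected). According to the study's methods and the submitters' processing notes, the authors demultiplexed reads with bcl2fastq 2.20, used STAR for alignment (build mm10) and counted reads per annotated gene. The annotation release and the use of strand in counting are not given in the sources used here. The labels and the methods name different library kits, of which that of the methods is a stranded one. There were 0 other columns of per-sample values.

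A symbol was tested if 2 or more libraries reached 2 CPM (11588 of 24421). Counts were TMM-normalized and fitted in edgeR 4.0.16 (R 4.3.3, limma 3.58.1) with cell type and mouse as terms, glmQLFTest was used, and p-values were adjusted by Benjamini-Hochberg over all genes tested. A gene was called at an adjusted p under 0.05. DESeq2 1.42.0 was run as an alternative. The libraries were paired by the mouse number in their labels, and the mouse 2 minus mouse 1 differences of both cell types had a correlation of 0.428 across genes. With 2 mice, 1 residual degree of freedom was left and the estimated prior degrees of freedom were infinite, so that p-values rest on a spread shared by all genes and can be too small for genes that vary more between animals. An exact permutation test over 2 against 2 libraries was not used because it cannot reach 0.05. Fold changes used a prior count of 0.125. The fitting steps were tested on simulated data.

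Levels per length divided CPM by the union of exons in GENCODE M21 on GRCm38. RefSeq windows of 250 bases on GRCm38.p6 were searched for 6 motifs. Figf was taken from the pathway lists. The members and lists were chosen with earlier results of these data known. Every member was named, whatever its result. Of each pathway list, up to 3 called genes with the largest log2 differences were named, and lists of 5 or fewer genes in full. For each receptor gene, the 3 genes with the nearest profile were named. Pdgfrl, Plau, Crk, Hif1a and the named marker genes fall outside this rule and were chosen after their values had been seen. Alternatives were RLE and upper-quartile normalization, no filter, a filter in at least 3 libraries, robust moderation, no mouse term, leaving out either mouse, and the longest transcript as length. The figures were drawn with matplotlib 3.10.9.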

Additional observations from a re-analysis of the deposited data

How the results depend on the processing

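All 10 genes kept their direction and their side of the threshold under RLE normalization, without the filter, with 2 CPM in at least 3 libraries and with robust moderation. They also kept their direction in either mouse alone, without a share of all genes to set beside this. The size of the smallest adjusted p-values depended strongly on the setting. With RLE normalization in edgeR, they were 6.68e-17 for Pdgfc, 1.3e-13 for Pdgfd, 6.9e-19 for Figf and 2.7e-10 for Plat. Without the mouse term in edgeR, they were 3.2e-05 for Pdgfc, 0.0008 for Pdgfd, 5.1e-05 for Figf and 0.0019 for Plat. With DESeq2's Wald test, 1918 of all genes were called (923 higher and 995 lower), with 2 of the 10 genes higher, 0 different between the mice, and 4 pathway genes higher and 11 lower. Without the mouse as a replicate block in edgeR, 2120 of all genes were called (1001 higher and 1119 lower), with 2 of the 10 genes higher, and 4 pathway genes higher and 9 lower. Among the 10 genes, the calls between the cell types that were lost were those of Vegfa (adjusted p = 0.0507 in DESeq2, 0.340 in edgeR without the block), Vegfb (0.434 and 0.101, and 0.0550 with upper-quartile normalization), Pgf (0.153 and 0.201) and, without the block, Pdgfrb (0.0756). Of the pathway calls (8 higher and 24 lower), 17 were lost in DESeq2 and 19 without the block, those of Kdr and Ptpn2 with RLE normalization and those of Furin and Ptpn2 without the filter, while Shc1 was gained with upper-quartile normalization and robust moderation and Pik3ca with the former. Between the mice, 3 of the 10 genes were called with RLE normalization, without the filter and with the filter in at least 3 libraries. The log2 fold change of Kdr ranged from -0.95 to 0.10 in the mice alone. With upper-quartile normalization, those of Grb2 (-0.0062), Lrp1 (-0.041) and Egln1 (-0.032) changed sign, as did that of Lrp1 with the filter in at least 3 libraries (-0.00045); none of these 3 genes was called, and the cause was not tested. With the longest transcript as length, 11 of 20 shares moved beyond 1 SD. Pdgfc was then above Pdgfd in both DPPIV- libraries (ratios of 1.09 and 1.39) and in both DPPIV+ libraries (1.28 and 2.10). In DPPIV+ FAPs they no longer overlapped, at 12.0 and 13.0 RPKM for Pdgfc and 9.40 and 6.21 RPKM for Pdgfd. Coding length was not run as an alternative. Counts of 34 to 85 reads limited Pdgfa and Pdgfb.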
